A study of Mus musculus with 4 samples.

Results

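Type I interferon-stimulated genes are the genes that a cell switches on when interferon-alpha or interferon-beta binds its receptor. The 49 mouse genes described here were listed by name and matched by symbol to NCBI Gene numbers, and all 49 reached the minimum of 1 FPKM (fragments per kilobase of transcript, scaled to the mapped fragments of the library) in at least 1 library. They are 49 of 12054 genes at that minimum and of 17723 genes listed in any library. The list names genes inducible by interferon in many cell types. The rule for keeping a listed gene used the 1 FPKM minimum, and the list was drawn up with earlier results of these data known.

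The libraries are total RNA of natural killer (NK) cells sorted from the spleen of C57BL/6J mice, labelled as 6-8 weeks of age. DNAM-1+ and DNAM-1- cells were sorted by surface DNAM-1, an activating receptor that recognises ligands on tumour cells. Each subset was taken from normal spleen, labelled day 0, and from the spleen of mice at day 17 after transfer of GFP-positive MLL-AF9 acute myeloid leukaemia (AML) cells without irradiation. The AML is thus a transplanted line of leukaemia driven by 1 fusion gene, in hosts that keep their own immune cells. Each of these groups has 1 library. A row of 4 values below gives normal spleen first, as DNAM-1+ and then DNAM-1- cells, followed by AML spleen in the same order of subsets. The other sort gates, the purity and the number of mice in each library are not stated in the labels. No difference between 2 libraries therefore has a replicate check, and none is given a p-value.

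In outline, type I interferon binds the receptor of Ifnar1 and Ifnar2, and the kinases Jak1 and Tyk2 then phosphorylate Stat2, which acts with Irf9 at the interferon-stimulated response element in target promoters. The products sense viral RNA, degrade it, block its translation or tag proteins, and some, such as Irf7 and Usp18, amplify or brake the pathway itself. Resting lymphocytes keep a low level of this programme, and in NK cells type I interferon is known to support cytotoxicity and survival.

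The response element shows in the promoters of part of the genes listed. RefSeq promoter windows (GRCm38.p6, 250 bases before to 50 after the start of transcription) were at hand for 39 of the 49 genes. The core of the element, GAAANNGAAA on either strand, occurred in the window of 18 of the 39 (46.2%), against 3.99% of 27025 genes with a window. The longer form GAAANNGAAACT, which contains the core, occurred in 10 of the 39 (25.6%) against 0.303%. The spaced palindrome TTCNNNGAA occurred in 6 (15.4%) against 9.55%. A match describes the letters and does not show binding. Of the IFIT and OAS genes, Ifit2, Oasl1 and Oasl2 had no core in their windows, and Oas2 had no window. The stretches below are shown because they carry the element in genes of the IFIT and OAS families, whose AML ratios had the lowest medians, and in Rsad2 and Isg15, read 5′ to 3′ on the strand of the gene, with the core in capitals (TTTCNNTTTC is the core on the opposite strand) and 15 bases to either side.
Ifit3, chr19:34583358-34583431, plus strand: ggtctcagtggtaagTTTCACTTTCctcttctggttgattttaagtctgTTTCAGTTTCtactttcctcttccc
Ifit3b, chr19:34607754-34607827, plus strand: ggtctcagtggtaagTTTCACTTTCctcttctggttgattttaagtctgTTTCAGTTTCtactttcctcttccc
Ifit1, chr19:34640770-34640828, plus strand: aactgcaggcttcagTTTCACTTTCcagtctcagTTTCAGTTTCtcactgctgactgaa
Rsad2, chr12:26456548-26456587, minus strand: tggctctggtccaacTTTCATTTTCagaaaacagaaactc
Oas3, chr5:120777710-120777749, minus strand: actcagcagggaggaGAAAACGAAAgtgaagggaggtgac
Oas1a, chr5:120907515-120907560, minus strand: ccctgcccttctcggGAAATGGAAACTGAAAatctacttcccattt
Oas1g, chr5:120887601-120887646, minus strand: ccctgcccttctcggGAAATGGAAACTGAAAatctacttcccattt
Isg15, chr4:156200860-156200911, minus strand: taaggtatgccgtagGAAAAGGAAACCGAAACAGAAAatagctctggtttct

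Ifit3 and Ifit3b have the same 74 bases, and Oas1a and Oas1g the same 46 bases. These bases are promoter sequence, and the transcripts of the genes were not compared. Where transcripts are also near-identical, the counting can split their reads in unknown ways. The single values of Ifit3, Ifit3b, Oas1a and Oas1g may be less certain for that reason. In Isg15 3 overlapping cores follow each other, and in Ifit1 and Ifit3 the 2 cores stand apart. The first core begins 156 bases before the start site in Ifit3, 104 in Ifit1, 120 in Rsad2, 75 in Oas3 and 78 in Isg15.

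Interferon-stimulated genes were lower in AML than in normal spleen in both NK subsets. Among DNAM-1+ cells 48 of the 49 genes had a log2 ratio below 0 (each ratio is log2 of AML over normal after adding 1 FPKM to both, which understates changes of low genes), and for DNAM-1- cells all 49 did. Their median log2 ratio was -0.49 (DNAM-1+) and -0.59 (DNAM-1-), while all genes whose higher value was at least 5 FPKM had medians of 0.01 and -0.00. Of those genes 47.3% and 50.2% were below 0. Summed over the 49 genes, the level was 2006 and 1983 FPKM in the normal libraries and 1489 and 1436 in the AML libraries. The 2 AML comparisons share no library, and 48 genes were below 0 in both. Of 8416 genes that met this 5 FPKM floor for both comparisons, 28.1% were below 0 in both.

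Most of these differences were moderate. At 2-fold or more, above the same floor, 0 of 39 interferon-stimulated genes were higher and 4 lower in AML in DNAM-1+ cells, where 0.311% and 0.346% of 8682 genes were higher and lower. In DNAM-1- cells 0 of 41 were higher and 9 lower, where 0.193% and 0.397% of 8808 genes were. At 1.5-fold or more, 15 of 39 and 18 of 41 were lower, against 1.29% and 1.16% of all genes, and 12 of 38 were lower by that much in both subsets, against 0.321%. The 4 genes at least 2-fold lower in AML in both subsets were Ifit3, Oasl1, Oasl2 and Rtp4, and 9 of all 8416 genes (0.107%) were. At the estimated depth of 8700000 to 8900000 fragments a library, the 95% counting interval of the log2 ratio left out 0 for 42 genes (DNAM-1+) and 47 genes (DNAM-1-). That interval covers counting error only and rests on approximate transcript lengths. The share of all genes whose interval left out 0 is not given, so these 2 counts have no background to be read against.

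**Figure D1:**
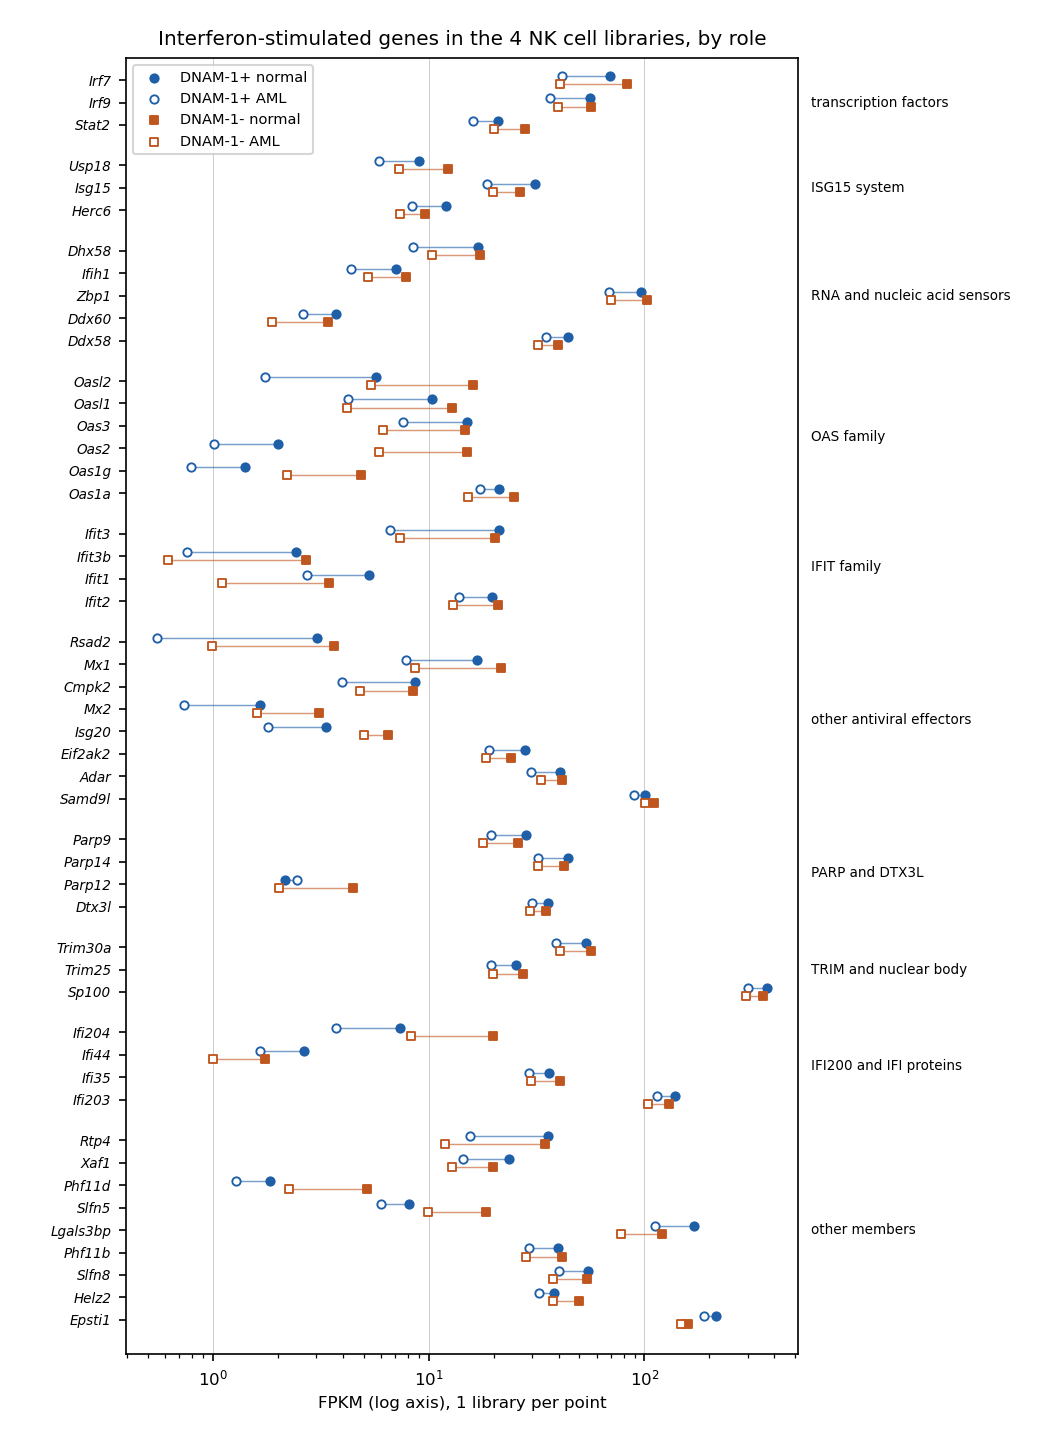
FPKM (log axis) of the 49 interferon-stimulated genes in the 4 libraries, grouped by role. Circles are DNAM-1+ and squares DNAM-1- cells, filled for normal and open for AML spleen, 1 library per point with no error bar. Within each subset the open symbol lies to the left of the filled one in every pair but the DNAM-1+ pair of Parp12, while in genes such as Oas2 the AML value of DNAM-1- cells lies above the normal value of DNAM-1+ cells.

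The only test the design allows is limma on log2(FPKM + 1) with 1 term for the subset and 1 for the spleen, which leaves 1 residual degree of freedom and borrows its spread from the 9074 genes that reached 5 FPKM anywhere. It tests the mean AML change of both subsets against 0. Of 42 interferon-stimulated genes tested, 14 fell and 0 rose in AML at a Benjamini-Hochberg adjusted p below 0.05, where 0.287% of all genes fell and 0.0661% rose. The 14 are 33.3% of the interferon-stimulated genes tested and 53.8% of the 26 genes of any kind that fell. Among the other 12 were the heat shock genes Hspa1a and Hspa1b and also Ifit1bl1, Ifi208, Trim30d and Hsh2d, which belong to families of interferon-responsive genes. These 6 were picked out after their values were seen. The number of calls turned on the settings: 0 of the 42 fell without the mean-variance trend (4 of all genes), 1 with a floor of 1 FPKM, 9 with a pseudocount of 5 FPKM and 25 with libraries rescaled to one median. The call of Parp9 was also lost with a pseudocount of 0.1 FPKM. The 2 AML libraries may come from the same mice, so the test does not measure the spread between mice.

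**Figure D2:**
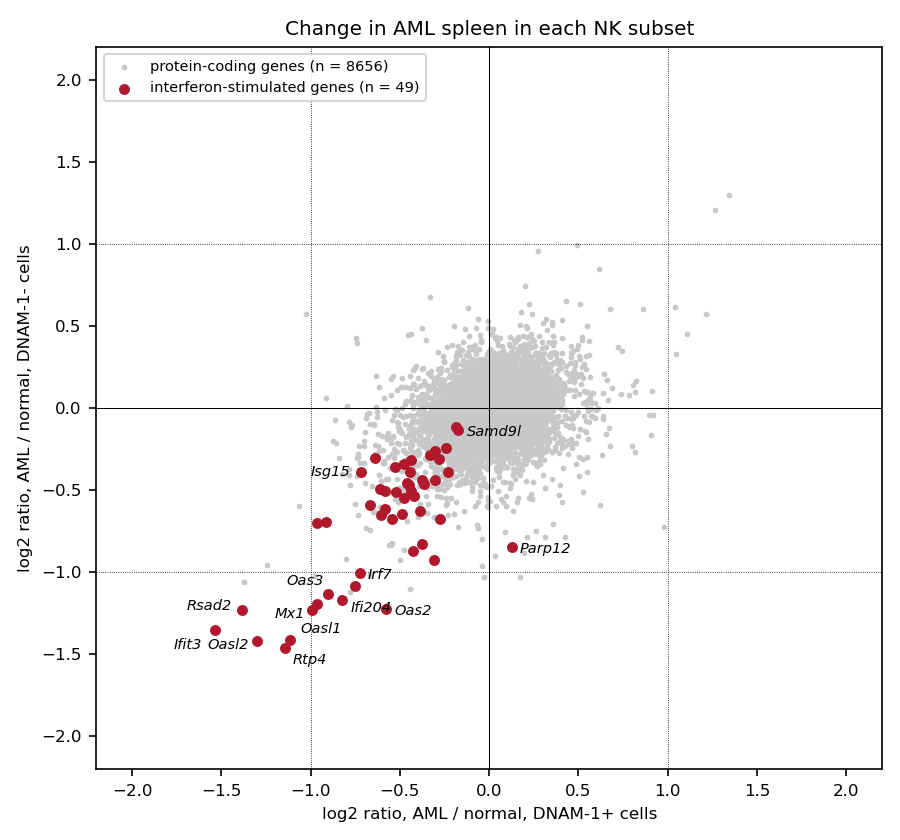
Log2 ratio of AML over normal spleen in DNAM-1+ cells (x axis) and DNAM-1- cells (y axis), 1 library against 1 for each axis. Grey points are 8656 protein-coding genes that reached 5 FPKM, of which 3 lie outside the axes, and red points the 49 interferon-stimulated genes; dotted lines mark 2-fold. All red points but Parp12 lie below 0 on both axes.

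The IFIT family and the OAS family had the lowest medians. Ifit proteins bind foreign RNA and hold back its translation. Ifit3 (NCBI Gene 15959) was at 21.1, 20.4, 6.62 and 7.35 FPKM, with both normal libraries above both AML libraries. Its log2 ratios were -1.54 and -1.36 (limma: -1.45, SE 0.08, adjusted p = 0.00345, lower in 2 of 2 subsets; the call is lost without the trend). Ifit1 was at 5.3, 3.47, 2.74 and 1.11 FPKM, Ifit2 at 19.7, 21, 13.8 and 13, and the copy Ifit3b at 2.43, 2.7, 0.76 and 0.62. All 4 were lower in AML in both subsets, with family medians of -0.86 and -1.14.

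The OAS proteins make a messenger from adenosine when they meet double-stranded RNA and so set off RNA decay, whereas Oasl1 lacks that activity and holds back translation of Irf7. Oasl1 (231655) was at 10.4, 12.8, 4.24 and 4.2 FPKM, a log2 ratio of -1.12 and -1.41. Oasl2 (23962) was at 5.74, 16.1, 1.74 and 5.41, a ratio of -1.30 and -1.42, so that its AML change was alike in both subsets although its level was higher in DNAM-1- cells. Oas3 (246727) was at 15.1, 14.7, 7.61 and 6.17. These 3 genes fell by limma (adjusted p = 0.0197 for each). Oas2 was at 2, 15.1, 1.01 and 5.91, with log2 ratios of -0.58 and -1.22, and Oas1a at 21.2, 24.8, 17.3 and 15.2. The family's medians were -0.74 and -1.18, and all 6 genes were lower in AML in both subsets.

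The transcription factors of the pathway itself were also lower in AML. Irf7 (54123), which drives a second wave of interferon and target genes, was at 69.6, 82.6, 41.7 and 40.7 FPKM (limma -0.86, SE 0.08, adjusted p = 0.0197). Irf9 (16391), which binds DNA at the response element, was at 56.1, 56.3, 36.4 and 39.6 (limma adjusted p = 0.04). Stat2 was at 21.1, 28, 16.2 and 20.1, with log2 ratios of -0.36 and -0.46 (limma adjusted p = 0.0956, not called). For Irf7 and Irf9 the 2 normal libraries lay above the 2 AML libraries, while the ranges of Stat2 came close to each other, with DNAM-1+ normal at 21.1 and DNAM-1- AML at 20.1.

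The ISG15 system tags proteins with a ubiquitin-like modifier. Isg15 itself was at 31.3, 26.5, 18.6 and 20 FPKM, Usp18, which removes the tag and also brakes the receptor, at 9.06, 12.3, 5.89 and 7.29, and Herc6, the tagging ligase of mouse cells, at 12, 9.6, 8.36 and 7.37. None of these 3 passed the limma test (adjusted p = 0.0928, 0.0862 and 0.191). Their AML libraries were nevertheless all below their normal libraries.

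Among sensors, Dhx58 (80861), a regulator of the RIG-I-like receptors, was at 16.9, 17.4, 8.49 and 10.3 FPKM (limma -0.80, SE 0.09, adjusted p = 0.0297). Zbp1 (58203), a sensor of Z-form nucleic acid that can start cell death, was at 95.9, 103, 68.7 and 70.3 (adjusted p = 0.04). The RNA sensors Ifih1 and Ddx58, which encode MDA5 and RIG-I, had log2 ratios of -0.58 and -0.51 and of -0.33 and -0.29 and were not called. Ddx60 had ratios of -0.39 and -0.62 at levels under 4 FPKM.

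Of the other antiviral effectors, Mx1 (17857), a GTPase against influenza virus of which C57BL/6 mice carry a defective allele, was at 16.7, 21.6, 7.89 and 8.65 FPKM (limma -1.11, SE 0.09, adjusted p = 0.0143). Rsad2, the gene of viperin, was at 3.04, 3.66, 0.55 and 0.99, with log2 ratios of -1.38 and -1.23, and was below the level tested. Its neighbour on chromosome 12, Cmpk2, a nucleotide kinase, was at 8.69, 8.46, 3.97 and 4.82. The translation block kinase gene Eif2ak2 and the RNA editing gene Adar were less changed, with ratios of -0.53 and -0.36 and of -0.44 and -0.32. Samd9l, at 101, 111, 89 and 101 FPKM, had ratios of -0.17 and -0.13.

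Other genes that fell by limma were Rtp4 (67775), Lgals3bp (19039), Xaf1 (327959), Ifi204 (15951) and Parp9 (80285). Rtp4, a chaperone of receptors and an inhibitor of viral replication, was at 35.7, 34.5, 15.6 and 11.9 FPKM (limma -1.30, SE 0.09, adjusted p = 0.00853). Lgals3bp, a secreted glycoprotein, was at 169, 120, 112 and 78.2, and its AML change was near the same size in both subsets (-0.59 and -0.62). Xaf1, which favours apoptosis, was at 23.5, 19.9, 14.4 and 12.9. Ifi204, of the p200 family of DNA-binding proteins, was at 7.38, 19.8, 3.74 and 8.26, and Parp9, which works with Dtx3l in ADP-ribosylation, at 28.4, 25.9, 19.5 and 17.9. The limma adjusted p of these 4 was 0.0224, 0.0327, 0.0377 and 0.0491.

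Of the 5 most abundant genes, Lgals3bp fell and the other 4, Sp100, Epsti1, Ifi203 and Samd9l, were not called, with ratios between -0.31 and -0.12. Sp100, of the PML nuclear bodies, was at 371, 354, 301 and 295 FPKM, with log2 ratios of -0.30 and -0.26. Epsti1 was at 215, 159, 189 and 147 (-0.18 and -0.12) and Ifi203, of the p200 family, at 139, 130, 114 and 104 (-0.28 and -0.31). Among genes of middle level, Dtx3l, the partner of Parp9, had a ratio of -0.24 in each subset, and Helz2 had -0.23 and -0.39. Both were below 0 and not called by limma. The 18 genes with the GAAANNGAAA core in the window had medians of -0.44 and -0.58, and the 21 without it -0.46 and -0.45.

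The size of the AML change was compared between subsets as the DNAM-1+ ratio minus the DNAM-1- ratio, for which no test is possible. Its median over the 49 genes was 0.06, against 0.01 over all genes, and it ranged from -0.33 (Isg20) to 0.97 (Parp12). The change was further below 0 in DNAM-1- cells for 30 genes and in DNAM-1+ cells for 19. Across the 49 genes the 2 ratios correlated with r = 0.74, and across 8107 protein-coding genes with r = 0.40; these are descriptions across genes of 4 libraries. Parp12, a translation-inhibiting PARP, was at 2.17, 4.45, 2.46 and 2.03 FPKM and was the 1 gene not lower in AML in DNAM-1+ cells (0.13, with a counting interval of 0.50 to either side). Oas2, Phf11d and Slfn5, the next in this order, were all higher in the DNAM-1- normal library than in the other libraries.

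The receptor and signalling genes upstream had a median ratio near 0 in each subset. Of 16 interferon receptor and proximal signalling genes at 1 FPKM or more, 0 were called by limma for AML, and their median log2 ratios were 0.05 and 0.03. Ifnar1 was at 37.8, 41.5, 41 and 39.1 FPKM and Ifnar2 at 49.6, 48.7, 50.1 and 50.8. The 9 other genes of the Irf family and its binding partners had medians of 0.07 and -0.07, and the 17 genes that induce interferon, such as Mavs, Tbk1 and Myd88, of 0.10 and 0.01, with 0 called in each list. Of 21 interferon genes, 14, among them Ifnb1, were listed in no library and 6 were under 1 FPKM in every library. Ifng, the NK cells' own type II interferon, was at 64.2, 70.9, 81.9 and 70 FPKM. Among 87 further interferon-stimulated genes at 1 FPKM or more, medians were -0.15 and -0.21, 62 and 74 were below 0, and 1 of 80 tested (Ifit1bl1; adjusted p = 0.04) fell by limma.

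**Figure D3:**
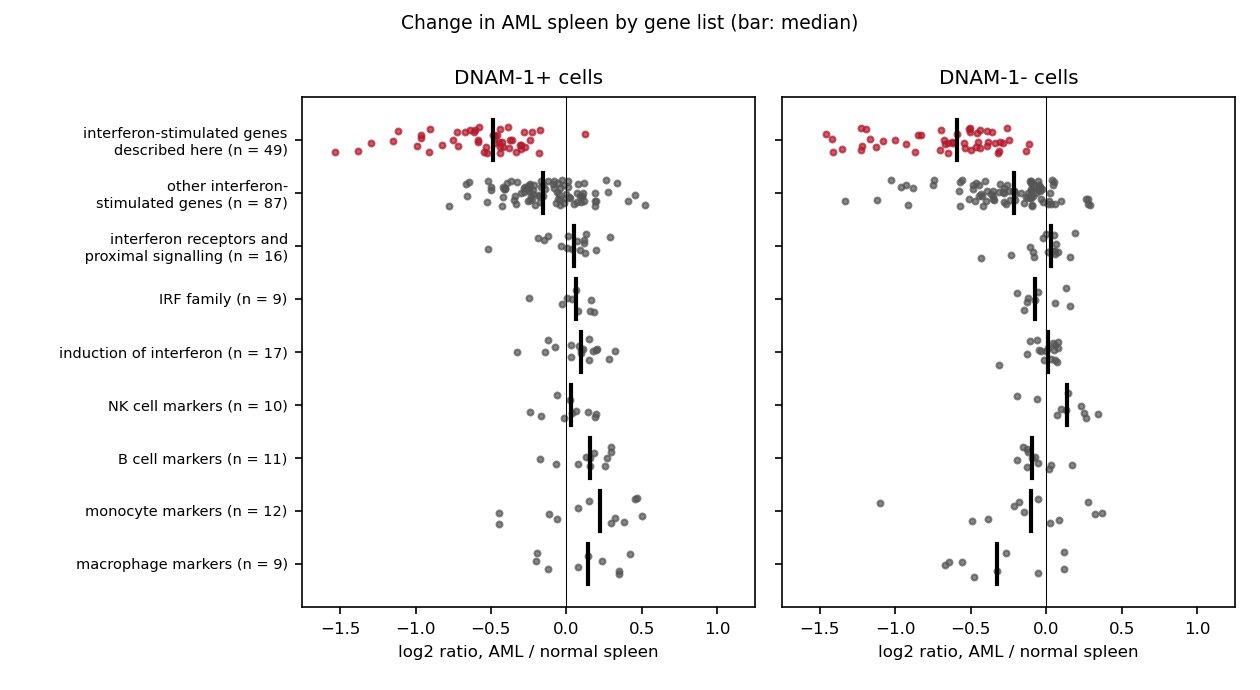
Log2 ratio of AML over normal spleen for the genes of each list at 1 FPKM or more, in DNAM-1+ cells (left) and DNAM-1- cells (right). Each point is a gene, vertical spread within a list is random, and bars mark the medians, which for the 49 interferon-stimulated genes are -0.49 and -0.59.

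Markers of other cells were present in these sorts and are given beside the AML change. Markers of NK cells had median AML ratios of 0.03 and 0.14, and all 10 were at 1 FPKM or more. B cell markers (all 11 at 1 FPKM or more) summed to 552 and 639 FPKM in DNAM-1+ normal and AML libraries and to 2539 and 2426 in the DNAM-1- pair, and monocyte markers (all 12) to 416 and 490 and to 985 and 957. Macrophage markers (9 of 10) summed to 72.1 and 77.7 in the DNAM-1+ pair, and to 445 and 360 in the DNAM-1- pair, where their median ratio was -0.33. Neutrophil markers (8 of 10) were lower in AML by sum, at 77.4 and 53.2 FPKM in the DNAM-1+ pair and 141 and 110.3 in the DNAM-1- pair, with medians of -0.23 and -0.26. Plasma cell markers (all 7) were higher in AML by sum, at 70.6 and 76.4 FPKM and at 199.7 and 310.2. Jchain alone was at 102.9 and 206.2 in the DNAM-1- pair. By ratio, 1 of the 7 was below 0 for the DNAM-1+ pair and 2 for the DNAM-1- pair. Markers of conventional dendritic cells (7 of 8) had medians of 0.30 and 0.22, with 0 and 2 of the 7 below 0. Their sums were 234 and 243 FPKM in the DNAM-1+ pair and 257 and 247 in the DNAM-1- pair. Among them Cd209a had ratios of 1.27 and 1.20 at 1.03, 3.9, 3.88 and 10.3 FPKM. T cell markers (9 of 12) had medians of -0.07 and -0.08. Their sums were 121 and 124 FPKM in the DNAM-1+ pair and 69.9 and 73 in the DNAM-1- pair. Trac, Trbc1 and Trbc2 had no value above 0 in any library. The annotation used is not given, so it is not known whether these genes were counted at all. Of plasmacytoid dendritic cells, known as strong interferon producers, the defining marker Siglech was at 0.4 FPKM or less in every library, and 5 of 9 markers reached 1 FPKM. Markers of leukaemia and myeloid progenitor cells (4 of 10 at 1 FPKM or more) summed to 20.1 and 31.7 FPKM in the DNAM-1+ pair and to 9.67 and 17.6 in the DNAM-1- pair. No marker gene was called by limma for AML. The part of RNA from these other cells in the change was not tested. In bulk libraries fewer cells that express a gene and less of its RNA per cell cannot be told apart.

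Between the subsets the interferon-stimulated genes were near equal as a group, with a few far lower in DNAM-1+ cells. The median log2 ratio of DNAM-1+ over DNAM-1- was -0.08 in normal and -0.02 in AML spleen, with 29 and 25 of the 49 below 0. All genes above the 5 FPKM floor had a median of 0.01 in either spleen, with 47.8% (normal) and 47.1% (AML) below 0. In both spleens 38 of the 49 lay within 0.5 of 0. How many of all genes lay that close is not given, so the 38 are not shown to be particular to this list. At 2-fold or more, 0 of 42 were higher and 5 lower in normal spleen (Ifi204, Oas2, Oasl2, Phf11d and Slfn5), where 1.28% and 3.97% of 8915 genes were, and 0 of 38 higher and 3 lower in AML spleen (Isg20, Oas2 and Oasl2), where 0.894% and 3.19% of 8839 genes were. Oas2 and Oasl2 were 2-fold lower in both spleens, as were 2.86% of 8680 genes. At 1.5-fold or more, 6 of 42 and 5 of 38 were lower, against 6.27% and 5.03%. By limma over both spleens, 2 of the 42 genes tested were called higher and 7 lower in DNAM-1+ cells, against 7.35% and 8.38% of all 9074 genes.

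Oas2 (246728) had the largest subset difference, at 2 and 1.01 FPKM in DNAM-1+ and 15.1 and 5.91 in DNAM-1- cells of normal and AML spleen (limma -2.10, SE 0.22, adjusted p = 0.00159). Oasl2 differed by -1.29 (SE 0.13, adjusted p = 0.00143) and Ifi204 by -1.14 (SE 0.12, adjusted p = 0.00152). Slfn5, a Schlafen family gene, was at 8.13 and 6.03 against 18.4 and 9.91, and Isg20, an RNA exonuclease, at 3.36 and 1.8 against 6.46 and 5.04; both fell (adjusted p = 0.00625 and 0.025). Stat2 and Helz2 fell by less, at -0.35 and -0.29 (adjusted p = 0.0209 and 0.0403). Helz2 lost its call with a floor of 1 FPKM and without the trend, and Stat2 without the trend. These lower values stand beside far lower markers of B cells (medians -2.15 and -1.94, 11 of 11 falling by limma), monocytes (-2.46 and -1.92, 9 of 11 tested falling) and macrophages (-1.32 and -0.96, 7 of 7), and the part of those cells in them was not tested.

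Lgals3bp and Epsti1 rose in DNAM-1+ cells, at 169 and 112 against 120 and 78.2 FPKM (limma 0.50, SE 0.06, adjusted p = 0.00277) and at 215 and 189 against 159 and 147 (0.40, SE 0.06, adjusted p = 0.00766). Ifit1 was at 5.3 and 2.74 against 3.47 and 1.11 FPKM and was not called (adjusted p = 0.151). Of neighbouring family members, Oas3 was at 15.1 against 14.7 in normal spleen while Oas2, next to it on chromosome 5, was at 2 against 15.1, and Oasl1 was at 10.4 against 12.8 while its neighbour Oasl2 was at 5.74 against 16.1. The 2 subset comparisons share no library, and over the 49 genes their ratios correlated with r = 0.89, again as a description across genes. The same value over all protein-coding genes is not given, so this r is not shown to be particular to the 49 genes.

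**Figure D4:**
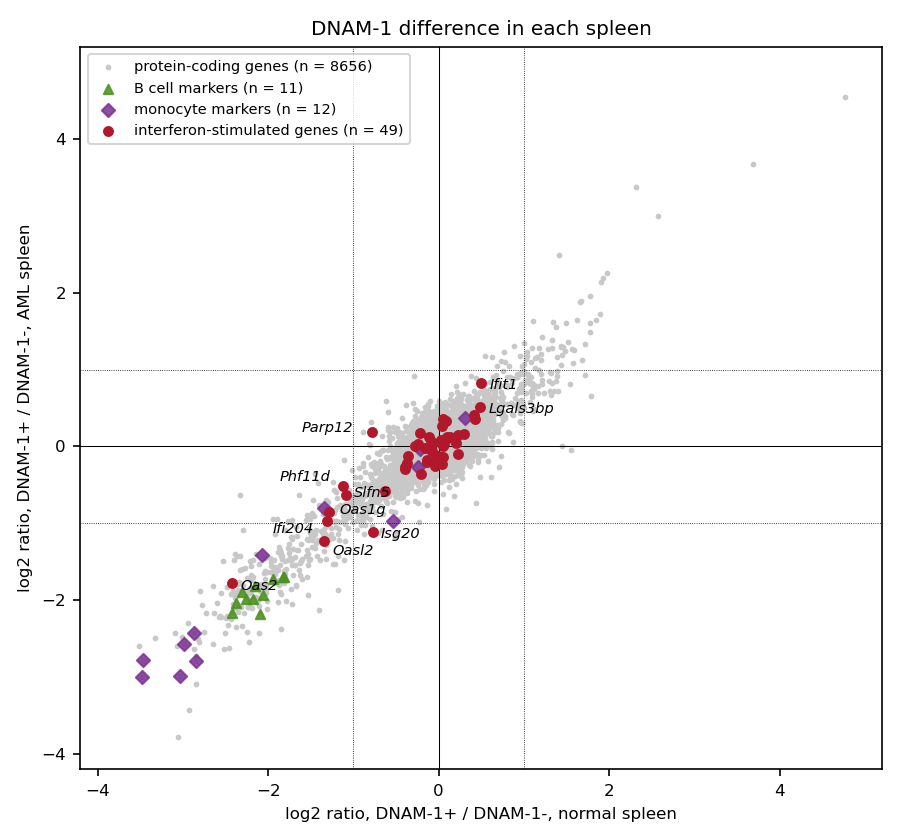
Log2 ratio of DNAM-1+ over DNAM-1- cells in normal spleen (x axis) and AML spleen (y axis), 1 library against 1 for each axis. Grey points are 8656 protein-coding genes, red the 49 interferon-stimulated genes, green triangles 11 B cell and purple diamonds 12 monocyte markers. Most red points sit near 0. Oas2, at -2.43 and -1.78, lies near the medians of both the B cell markers (-2.15 and -1.94) and the monocyte markers (-2.46 and -1.92).

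In the pathway lists, several genes lower in DNAM-1+ cells are ones that B cells and myeloid cells are known to express. The part of those cells in the differences given here was not tested. Tlr7 and Tlr9, endosomal sensors of RNA and DNA, were at 2 and 2.46 against 12.7 and 10.1 FPKM and at 2.11 and 2.89 against 10.9 and 9.85, and their chaperone gene Unc93b1 at 33.8 and 37.5 against 82.3 and 79.5. Of the 16 tested genes that induce interferon, 3 fell and 1 rose by limma, the latter Ikbke (29.2 and 31.6 against 20.7 and 21.8). In the Irf family 4 of 9 fell and 0 rose, among them Irf5 (24.6 and 25.9 against 59.4 and 51.9) and Irf4. Of 16 receptor and signalling genes 2 rose and 2 fell, the latter Ifngr2 and Ptpn6, and Socs1, a brake of Jak kinases, was at 20.4 and 23.5 against 16.1 and 17.1. Ifnar1 and Ifnar2 were not called.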

How the data were processed

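Total RNA of 4 sorted NK cell samples was sequenced on the BGISEQ-500 platform, per the labels' protocols, with 1 library in each group. Bowtie2 (2.2.5) and RSEM are listed in the submitters' processing notes without their roles, and build and annotation are not given in the sources used here. The authors deposited FPKM (per the file headers), rounded to 2 decimals, and a gene absent from a file was taken as 0. Of 17723 gene numbers 17668 matched a RefSeq symbol (GRCm38.p6). Depth was estimated from the steps of microRNA values of 55 to 100 nt (effective length taken as length minus 35 nt), of which, up to 6 reads, 90.7% to 95.4% came within 0.1 read of a whole number, as 8700000 to 8900000 fragments. The median length of GENCODE protein-coding transcripts gave approximate reads per gene and their 95% counting intervals. Contrasts are log2 ratios after adding 1 FPKM, without a test. limma 3.58.1 (R 4.3.3, with trend, two-sided) was fitted to 9074 genes with at least 5 FPKM in a library, adjusted over all of them (Benjamini-Hochberg). The fit was also run on simulated libraries with independent noise, a check that does not cover the spread between mice. Genes named were those at 2-fold, those called, the 5 highest and 5 lowest ratios of each contrast and the 5 highest levels, and others were named, after their values were seen, to complete a role or pathway. Members, lists and tests were chosen with earlier results of these data known. Pseudocount, floor, fold, scaling and trend were varied.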

Additional observations from a re-analysis of the deposited data

Results flagged for a closer look

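The AML change of Parp12 had opposite signs in the subsets, 0.13 for DNAM-1+ and -0.85 for DNAM-1- cells, and so had its DNAM-1 difference in the spleens, at -0.78 in normal and 0.19 in AML spleen. Both come from the same 4 values (2.17, 4.45, 2.46 and 2.03 FPKM), of which the DNAM-1- normal library is the high one. The DNAM-1 difference of Oas1a was -0.22 in normal and 0.18 in AML spleen, and that of Ifit3b -0.11 and 0.12. Each sign rests on 1 library a group, only signs beyond 0.1 on either side were taken up, and none of these differences was tested.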

How the results depend on the processing

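With libraries rescaled to one median, 48 and 49 of the 49 genes were below 0 in AML, but this moved no library by more than 0.0079 on the log2 scale, less than the ratio nearest 0, and a pseudocount cannot turn a sign. Counts of genes 2-fold lower in AML were 4 (DNAM-1+) and 9 (DNAM-1-); they were 1 and 3 with a pseudocount of 5 FPKM, 2 and 4 with a floor of 20 FPKM, and 15 and 18 at 1.5-fold. The medians of -0.49 and -0.59 became -0.38 and -0.45 with a pseudocount of 5 FPKM, which draws all ratios to 0. Genes 2-fold lower in DNAM-1+ cells numbered 5 in normal and 3 in AML spleen, 2 and 0 with a pseudocount of 5 FPKM, 0 and 0 with a floor of 20 FPKM, and 5 in AML spleen at 1.5-fold. The limma count of genes that fell in AML (14 of 42) was 0 of 42 without the trend, 1 of 49 with a floor of 1 FPKM, 9 with a pseudocount of 5 FPKM and 25 with rescaling. With a floor of 20 FPKM 19 of 28 tested fell in AML, and 2 rather than 7 fell in DNAM-1+ cells. No paired analysis was possible because each group holds 1 library and the labels identify no mouse. With 1 library a group, none could be left out.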
